A study of Mus musculus with 22 samples.

Results

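Kcne2 and Clic6 are genes of the choroid plexus epithelium that lie on the distal part of mouse chromosome 16 (Mmu16) and are present in 3 copies in Ts66Yah mice, a mouse model of Down syndrome. They were followed together with 8 genes of the same epithelium that keep the normal copy number, Ttr, Folr1, Kl, Aqp1, Slc4a5, Otx2, Kcnj13 and Prlr. These 10 genes were taken by symbol from a count table of 55385 genes and were measured in all 22 libraries. Ts66Yah mice carry a freely segregating minichromosome derived from that of the Ts65Dn line, with the additional Mmu16 segment but with the centromeric Mmu17 part of Ts65Dn deleted by CRISPR/Cas9, and the line goes back to a single founder male. Hippocampi (HIP) and entorhinal cortices (EC) of 6 Ts66Yah males and 5 wild-type (wt) littermate control males, aged 5 to 6 months, were used for RNA-Seq, with 1 library per region and animal and no treatment named in the labels. The HIP and EC libraries with the same genotype and replicate number came from the same animal. Between 25.9 and 50.1 M reads per library were assigned to genes.

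The choroid plexus is a vascularised fringe of tissue that hangs into the brain ventricles, and its epithelium secretes the cerebrospinal fluid. That epithelium moves ions and water by means of channels and transporters, carries vitamins and hormones between blood and fluid, and releases proteins such as transthyretin. It is attached along the edge of the hippocampus and is absent from the entorhinal cortex, so that the amount of it taken along with a dissected hippocampus can differ from animal to animal. In whole tissue, more epithelial cells and more RNA per cell cannot be told apart. The question put to the data was therefore whether Kcne2 and Clic6 were higher in Ts66Yah at a given level of the other 8 genes.

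Kcne2 (ENSMUSG00000039672) encodes a small transmembrane subunit that modulates potassium channels, and lies at chr16:92292389-92298129 (GRCm38, forward strand). Clic6 (ENSMUSG00000022949), a member of the chloride intracellular channel family, lies downstream at chr16:92485736-92541243 on the same strand. Both lie inside the triplicated segment. It was taken here from the start of Mir155, position 84714140, to the end of the last annotated gene, position 98082450. This interval holds 289 genes of the table. The junction that the paper sequenced in Ts66Yah lies upstream of that start, so these positions are not measured boundaries. The other genes lie elsewhere: Ttr and Folr1 on other chromosomes (Folr1 at chr7:101858331-101870788), Kl at chr5:150952607-150993817, Aqp1 at chr6:55336432-55348555, Slc4a5 at chr6:83219828-83304945, Otx2 at chr14:48657677-48673819, Kcnj13 at chr1:87386363-87394729 and Prlr at chr15:10177238-10349180. Clic6 overlaps 2410124H12Rik, Otx2 overlaps Gm49154 and Prlr overlaps Gm21973 on the same strand. Kcnj13, Otx2 and Folr1 overlap Gigyf2, Otx2os1 and Anapc15 on the opposite strand. Reads in those overlaps may have been dropped or assigned to the other gene, whereas Kcne2, Ttr, Kl, Aqp1 and Slc4a5 overlap no other annotated gene.

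The 250 bases before the gene start are shown for Kcne2 at both of its listed starts and for the disomic potassium channel gene Kcnj13. They are as given by RefSeq for GRCm38.p6, 5′ to 3′ on the gene's strand. Capitals mark a match to the TATA box letters TATAAA.
Kcne2, first start, chr16:92292139-92292388, forward strand: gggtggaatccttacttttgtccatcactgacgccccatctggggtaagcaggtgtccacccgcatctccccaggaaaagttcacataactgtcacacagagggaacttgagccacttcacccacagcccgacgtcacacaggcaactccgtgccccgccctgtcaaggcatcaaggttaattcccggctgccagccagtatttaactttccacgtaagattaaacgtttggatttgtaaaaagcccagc
Kcne2, second start, chr16:92295366-92295615, forward strand: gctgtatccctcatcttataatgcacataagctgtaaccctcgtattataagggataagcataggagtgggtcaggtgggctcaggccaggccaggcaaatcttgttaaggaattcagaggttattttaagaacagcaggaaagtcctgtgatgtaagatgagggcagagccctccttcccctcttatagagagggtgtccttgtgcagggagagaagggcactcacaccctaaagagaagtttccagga
Kcnj13, chr1:87394730-87394979, reverse strand: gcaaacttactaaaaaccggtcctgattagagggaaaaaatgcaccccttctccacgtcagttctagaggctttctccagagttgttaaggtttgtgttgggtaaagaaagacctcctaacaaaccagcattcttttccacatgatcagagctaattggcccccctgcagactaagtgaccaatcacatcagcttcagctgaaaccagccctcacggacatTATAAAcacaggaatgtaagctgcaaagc
The letters were searched on both strands, together with the OTX2 core TAATCC, which shares no overlap with the TATA letters. Kcnj13 holds TATAAA starting 29 bases before its gene start, whereas neither Kcne2 window holds either motif. Of the windows not shown, a window of Slc4a5 and a window of Otx2 also hold TATAAA, and another Otx2 window holds TAATCC. Of 32851 promoter windows of the same length, 12.4% held TATAAA and 6.25% held TAATCC on either strand. A match is a description of the letters and no evidence of binding.

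All 10 genes were detected in every HIP library, and their levels differed widely between animals of the same genotype. In wt HIP, replicates 1 to 5 had Kcne2 levels of 5.81, 17.5, 7.98, 0.264 and 13.5 CPM (counts per M reads of the library, scaled by TMM factors over all 22 libraries), from 169, 716, 399, 7 and 482 reads. In Ts66Yah HIP, Kcne2 ran from 6.34 over a median of 12.0 to 22.4 CPM. The highest Kcne2 level was in Ts66Yah replicate 1, the lowest by far was in wt replicate 4, and the genotypes overlapped.

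Clic6 was more abundant and had the same order at both ends. Its levels in wt HIP were 18.1, 58.8, 24.8, 3.97 and 37.5 CPM for replicates 1 to 5. In Ts66Yah HIP it ran from 21.6 over a median of 33.6 to 73.8 CPM. Here too wt replicate 4 was lowest, Ts66Yah replicate 1 was highest, wt replicate 1 was also below the Ts66Yah range and the other 3 wt libraries lay within it.

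Ttr, which encodes the thyroid hormone carrier transthyretin, gave the largest signal of the set. It stood at 1065, 3126, 1391, 80.2 and 2310 CPM in wt HIP and at 714 to 2686 CPM in Ts66Yah HIP, with a median of 1113. Between the highest and the lowest HIP library Ttr differed 39.0-fold, Kcne2 84.9-fold, Folr1 (folate receptor alpha) 43.0-fold, Kcnj13 (an inwardly rectifying potassium channel) 38.7-fold, Aqp1 (a water channel) 36.0-fold and Slc4a5 (a sodium bicarbonate cotransporter) 31.6-fold. The range was narrower for Clic6 (18.6-fold), for Otx2 (a homeodomain transcription factor, 14.9-fold) and for Prlr (the prolactin receptor, 14.9-fold), and it was narrowest for Kl (the co-receptor klotho, 4.19-fold). Without wt replicate 4, the ranges of the 10 genes were 3.18-fold (Kl) to 6.54-fold.

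Per kilobase of exon (CPM divided by the summed exon length), the mean levels over the 11 HIP libraries were 1244 ± 784 (SD) for Ttr, 8.75 ± 4.99 for Clic6, 6.75 ± 2.82 for Kl, 6.30 ± 3.64 for Kcne2, 4.28 ± 2.76 for Folr1, 4.17 ± 2.73 for Aqp1, 4.02 ± 2.69 for Kcnj13, 1.71 ± 1.15 for Slc4a5, 1.25 ± 0.761 for Prlr and 1.19 ± 0.704 for Otx2. Ttr stood apart from all others. Every other neighbour in that order was closer than its SD, apart from Kcnj13 and Slc4a5, whose means differed by more than the SD of Slc4a5 but by less than that of Kcnj13.

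**Figure D1:**
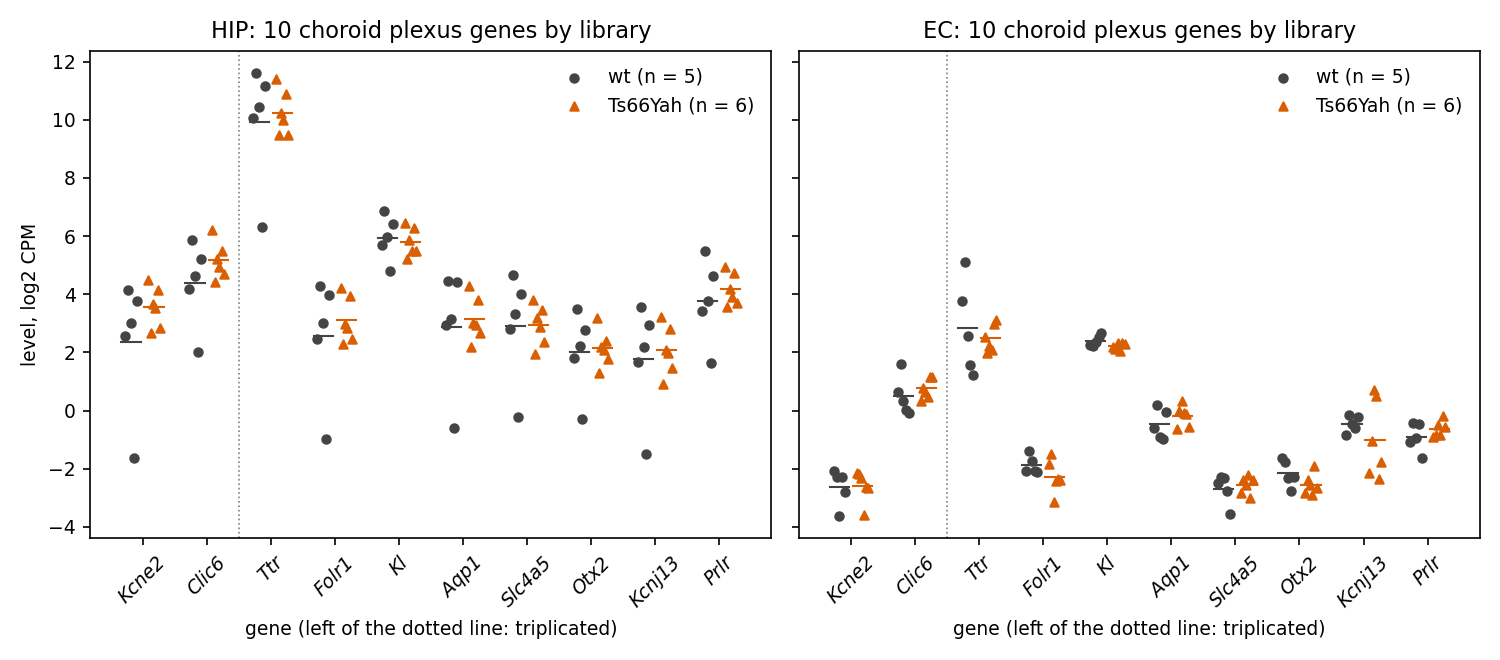
Level of each of the 10 genes (log2 CPM, vertical axis) in every library, HIP on the left and EC on the right; circles are wt (n = 5), triangles are Ts66Yah (n = 6) and horizontal lines are group means. In the HIP, 1 wt library is lowest for every gene and far below the others for every gene but Kl, and in the EC the levels are much lower for all 10 genes.

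The amount of choroid plexus RNA in a library was summarised as its content, the mean log2 CPM of the 8 disomic genes. In wt HIP the content was 3.86, 5.55, 4.26, 1.15 and 5.04 for replicates 1 to 5. In Ts66Yah HIP it was 5.19, 3.36, 4.21, 4.01, 4.79 and 3.67 for replicates 1 to 6. The wt mean was 3.97 ± 1.71 (SD, n = 5), the Ts66Yah mean was 4.21 ± 0.68 (SD, n = 6), and they differed by 0.23, which was smaller than the spread in either genotype, and the content over all 11 HIP libraries covered a 21.2-fold range. Without wt replicate 4 the difference turned to -0.47, lower in Ts66Yah, and the content ran from 3.36 to 5.55. The library of wt replicate 4 had the lowest content and also the fewest reads of all 22 libraries (25.9 M). It also had the lowest summed level of 11 ependymal genes (24.6 CPM, against 27.9 to 48.6 in the other HIP libraries) and of 14 meningeal and stromal genes (94.7 CPM, against 122 to 243). The part of these differences in the results was not tested, and the main results on Kcne2 and Clic6 are given with and without this library.

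Kcne2 and Clic6 both followed the content in the HIP. For Kcne2 over the 11 libraries, Pearson's r was 0.950 (permutation test, p = 5e-05, adjusted p = 0.0001) and Spearman's rho was 0.927 (permutation p = 0.00017, adjusted p = 0.00068). For Clic6, r was 0.959 (permutation p = 5e-05, adjusted p = 0.0001) and rho was 0.891 (permutation p = 0.00046, adjusted p = 0.00092). Without the 2 libraries farthest from the median content, wt replicates 2 and 4, r was 0.877 for Kcne2 (permutation p = 0.0026) and 0.840 for Clic6 (permutation p = 0.0037). P-values were adjusted over 4 relations, 2 genes in 2 regions, and all values of a point share a library and its depth.

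**Figure D2:**
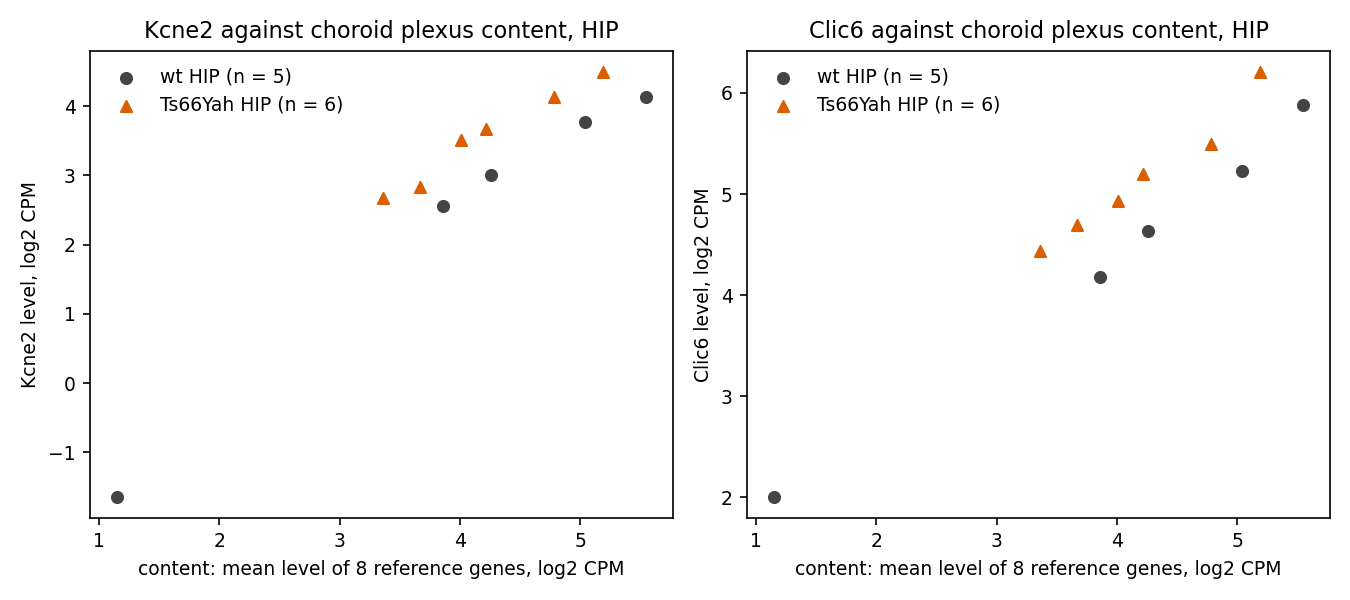
Level of Kcne2 (left) and Clic6 (right) in the 11 HIP libraries (log2 CPM, vertical axis) against the choroid plexus content of the same library (mean log2 CPM of the 8 disomic genes, horizontal axis); circles are wt (n = 5) and triangles Ts66Yah (n = 6). Both genes climb with content, and the triangles lie above the circles of like content; the wt library at a content of 1.15 has no Ts66Yah library near it.

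Compared without regard to content, none of the 10 genes passed the test between Ts66Yah and wt HIP, with 0 of 10 called at an adjusted p under 0.05 (edgeR quasi-likelihood test, Benjamini-Hochberg over all genes), where 109 of 18452 genes, or 0.591%, were called. The log2 fold change of Kcne2 was 0.50 with a standard error (SE) of 0.54 (edgeR, adjusted p = 0.775), and that of Clic6 was 0.44 with an SE of 0.47 (edgeR, adjusted p = 0.770). Without wt replicate 4 these values were 0.21 (SE 0.36, edgeR adjusted p = 0.881) for Kcne2 and 0.17 (SE 0.35, edgeR adjusted p = 0.902) for Clic6. The 8 disomic genes had, with all libraries, log2 fold changes from -0.50 (Slc4a5, SE 0.52) to -0.01 (Folr1, SE 0.56). The errors with all libraries were about as large as the log2 of 1.5 that an additional copy would give (0.58), so neither a 1.5-fold difference nor its absence could be seen in this comparison.

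Scaled to the other genes of the same library, Kcne2 and Clic6 were higher in Ts66Yah HIP. The scaled value is the log2 CPM of the gene minus the content. For Kcne2 it was -1.31, -1.41, -1.25, -2.79 and -1.28 in wt replicates 1 to 5 and -0.70, -0.68, -0.55, -0.50, -0.65 and -0.85 in Ts66Yah replicates 1 to 6. All 6 Ts66Yah values were above all 5 wt values. The difference of the means was 0.95, or 1.94-fold, with a 95% interval from 1.48- to 2.88-fold (two-sided exact permutation test, p = 0.0022, the smallest that 462 splits of the animals can give, adjusted p = 0.0065 over 6 scaled values). Against a 1.5-fold difference instead of none, the exact permutation p was 0.0866 (adjusted p = 0.519).

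The low value of wt replicate 4, which rests on 7 reads of Kcne2, set part of that size. Without this library the wt mean was -1.31 ± 0.07 (SD, n = 4), the Ts66Yah mean was -0.66 ± 0.12 (SD, n = 6) and the difference was 0.66, or 1.58-fold, with a 95% interval from 1.41- to 1.76-fold (exact permutation test, p = 0.0048, adjusted p = 0.0095). The groups again did not overlap.

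For Clic6 the scaled values were 0.32, 0.33, 0.37, 0.86 and 0.19 in wt replicates 1 to 5 and 1.02, 1.08, 0.99, 0.92, 0.71 and 1.02 in Ts66Yah replicates 1 to 6. Here wt replicate 4 was the highest wt library and lay above the lowest Ts66Yah library, replicate 5. The difference was 0.54, or 1.46-fold, with a 95% interval from 1.20- to 1.70-fold (exact permutation test, p = 0.0065, adjusted p = 0.0130). Against a 1.5-fold difference the exact permutation p was 0.801 (adjusted p = 0.903). Without wt replicate 4, Clic6 was 1.57-fold higher, with a 95% interval from 1.39- to 1.76-fold, and the groups did not overlap (exact permutation p = 0.0048, adjusted p = 0.0095).

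As a share of Ttr reads, Kcne2 separated the genotypes in the HIP and Clic6 did not. Kcne2 reads were 0.545%, 0.561%, 0.574%, 0.330% and 0.585% of Ttr reads in wt HIP replicates 1 to 5 and 0.835% to 1.12% in the 6 Ts66Yah libraries. Clic6 reads were 1.69%, 1.88%, 1.78%, 4.94% and 1.62% of Ttr reads in wt HIP and 2.36% to 3.61% in Ts66Yah HIP. For Clic6 the library of wt replicate 4 was above the Ts66Yah range and the other 4 wt libraries were below it, and against Ttr alone the fold of 1.37 did not pass the test (exact permutation p = 0.160).

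**Figure D3:**
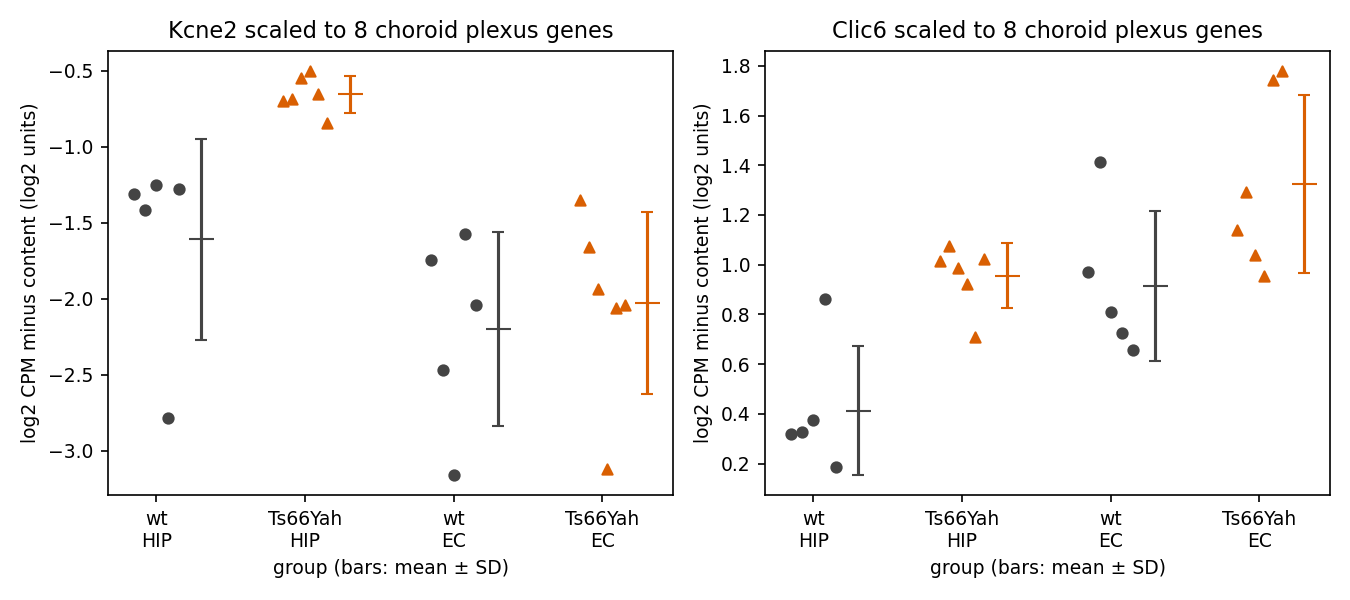
Scaled values of Kcne2 (left) and Clic6 (right), the log2 CPM of the gene minus the content of the same library, in the 4 groups; points are libraries, and bars beside them are the mean ± SD (n = 5 wt and 6 Ts66Yah per region). In the HIP the Kcne2 values of Ts66Yah lie at -0.85 or above and those of wt at -1.25 or below, and in the EC the genotypes overlap for both genes.

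The choice of reference moved the HIP differences of both genes by the same amount, but it decided the outcome of the test only for Clic6. Against each of the 8 disomic genes alone (all but Ttr added as alternatives after the data were seen), Kcne2 was 1.54-fold (Folr1) to 2.54-fold (Kl) higher in Ts66Yah HIP, with no overlap for 6 of 8 references and unadjusted exact permutation p from 0.0022 to 0.0216. Clic6 was 1.16-fold (Folr1, exact permutation p = 0.511) to 1.91-fold (Kl, exact permutation p = 0.0022) higher, and 4 of 8 references, Ttr, Folr1, Aqp1 and Kcnj13, gave an exact permutation p over 0.05. The animal numbers in the labels fall into 2 ranges, with wt replicate 1 in neither: in the lower range (wt replicates 2 and 3, Ts66Yah replicates 5 and 6) the scaled difference was 0.59 for Kcne2 and 0.52 for Clic6, and in the upper range (wt replicates 4 and 5, Ts66Yah replicates 1 to 4) it was 1.42 and 0.48, without overlap in any of these. So few animals allow exact p-values no lower than 0.333 and 0.0667. The upper range includes wt replicate 4, with scaled values of -2.79 (Kcne2) and 0.86 (Clic6). Those of wt replicate 5 were -1.28 and 0.19. The differences in this range were not taken without wt replicate 4.

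Kcne2 and Clic6 were also higher when each gene could follow the content with a slope of its own. With content as a covariate in the edgeR fit over all HIP libraries, Kcne2 rose by 0.80 on the log2 scale (SE 0.13, edgeR adjusted p = 0.0108) and Clic6 rose by 0.59 (SE 0.07, edgeR adjusted p = 0.00055). In this fit 109 of 18452 genes, or 0.591%, were called, and among the 10 genes 2 were called, both of them triplicated. Without wt replicate 4 the values were 0.67 for Kcne2 (SE 0.09, edgeR adjusted p = 0.0035) and 0.63 for Clic6 (SE 0.07, edgeR adjusted p = 0.0014).

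None of the 8 disomic genes was called in the fit with content. The nearest were Folr1 at 0.27 (SE 0.09, edgeR adjusted p = 0.264), Kl at -0.26 (SE 0.10, edgeR adjusted p = 0.316) and Slc4a5 at -0.23 (SE 0.09, edgeR adjusted p = 0.342), and the other 5 lay between -0.03 (Aqp1) and 0.19 (Prlr). Each of these 8 is part of the content, so its value is a description. Scaled to the other 7 with all libraries, the disomic genes differed between genotypes in the HIP by -0.44 (Kl) to 0.38 (Folr1). The genotypes overlapped for all 8. For these 8 genes the overlap was not examined without wt replicate 4.

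**Figure D4:**
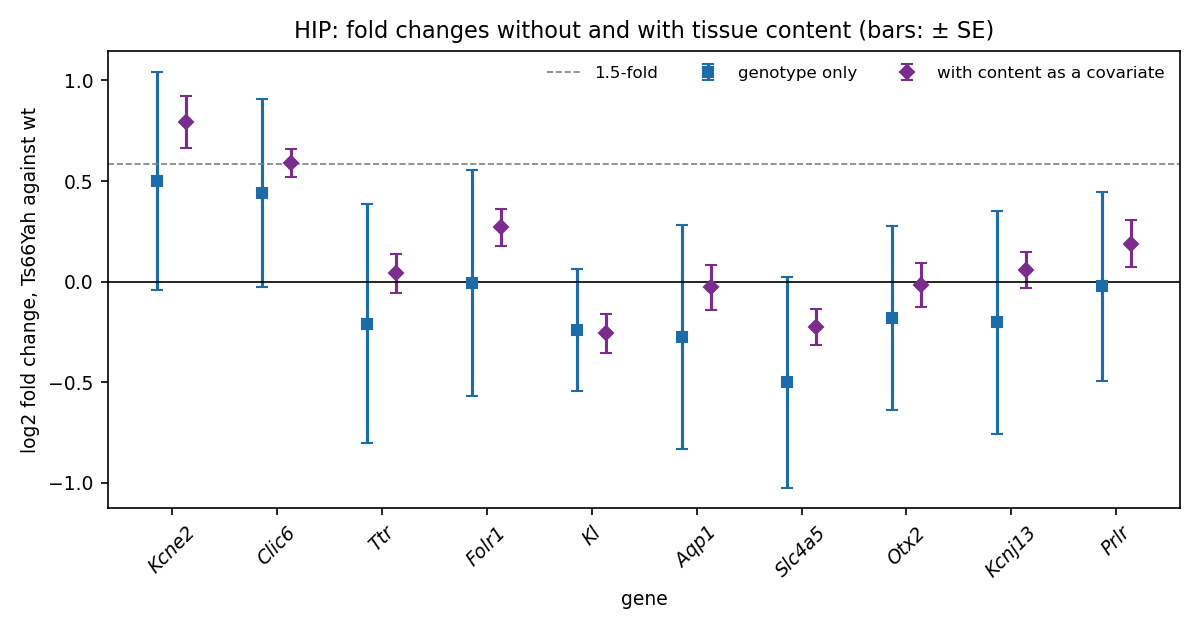
Log2 fold change between Ts66Yah and wt HIP for each gene (vertical axis) from the fit with genotype only (squares) and with content as a covariate (diamonds); bars are ± SE and the dashed line marks a 1.5-fold difference. With content the errors shrink, from 0.54 to 0.13 for Kcne2 and from 0.47 to 0.07 for Clic6, and Kcne2 and Clic6 alone lie near or above the dashed line.

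The slopes on content in this fit were 1.16 for Kcne2 (SE 0.07) and 0.88 for Clic6 (SE 0.03), so that with all libraries Kcne2 gained slightly more and Clic6 slightly less than the mean of the references. Both slopes were called, where 121 of 18452 genes, or 0.656%, were called for content. Slopes were not taken without wt replicate 4, whose content of 1.15 lay far below the 3.36 to 5.55 of the others. How far they rest on it was not tested. Among the references, for which the slope is again a description, it was 1.20 for Ttr, 1.20 for Folr1, 1.18 for Kcnj13, 1.17 for Aqp1, 1.08 for Slc4a5, 0.88 for Otx2, 0.86 for Prlr and 0.49 for Kl.

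In the EC, Kcne2, Folr1, Slc4a5 and Otx2 were close to their limit of detection. Kcne2 had 6, 5, 1, 5 and 3 reads in wt EC and 1 to 6 reads in Ts66Yah EC. Pooled over animals this was 20 reads in wt, or 0.112 reads per M (95% exact Poisson interval 0.0684 to 0.173), and 23 reads in Ts66Yah, or 0.113 reads per M (0.0718 to 0.170), and these intervals cover counting error only. Kcne2, Folr1, Slc4a5 and Otx2 had too few reads for the test, and of the other 6 genes 0 were called, where 50 of 17658 genes, or 0.283%, were called.

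Clic6 was measurable in the EC, with 50, 100, 50, 32 and 30 reads in wt and 43 to 64 reads in Ts66Yah, or 0.886 to 2.99 CPM and 1.20 to 2.19 CPM. Fitted with genotype alone it differed by 0.14 on the log2 scale (SE 0.30, edgeR adjusted p = 0.988). With content as a covariate it differed by 0.55 (SE 0.22, edgeR adjusted p = 0.748), a fit in which 41 of 17658 genes, or 0.232%, were called and 0 of the 6 tested genes. Ttr had 78 to 1166 reads in wt EC and 117 to 253 in Ts66Yah EC. The fitted difference was -1.05 on the log2 scale (SE 0.57, edgeR adjusted p = 0.871), and the 2 highest libraries were wt replicates 1 and 2. Kl was steady, at 4.66 to 6.29 CPM in wt and 4.08 to 5.01 CPM in Ts66Yah EC. Kcnj13 differed from the other genes in that its EC reads varied widely among Ts66Yah animals, with 6, 13, 56, 52, 4 and 7 reads in replicates 1 to 6 against 17, 28, 28, 20 and 27 in wt, and its fitted log2 difference was -0.04 (SE 0.55, edgeR adjusted p = 0.998). Because Kcnj13 overlaps Gigyf2 on the opposite strand and the strand setting of the counting is not given in the sources used here, reads of both genes cannot be told apart. Summed meningeal and stromal genes stood at 136, 191, 323, 288, 140 and 134 CPM in Ts66Yah EC replicates 1 to 6. They were highest in replicates 3 and 4, which also had the most Kcnj13 reads. In wt EC replicates 1 to 5 the sums were 170, 170, 251, 257 and 244 CPM, and Kcnj13 reads did not keep that order. A relation of Kcnj13, which is part of the content, to these genes was not tested.

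Scaled values in the EC did not separate the genotypes. The content there ran only from -0.81 to 0.19, near the level set by the prior count of 2 for several genes. Kcne2 scaled was 1.13-fold higher in Ts66Yah, with a 95% interval from 0.620- to 2.09-fold (exact permutation p = 0.621), and Clic6 was 1.33-fold higher, with an interval from 0.957- to 1.83-fold (exact permutation p = 0.0779, adjusted p = 0.0935). Both intervals hold 1 and 1.5. In the EC, Kcne2 did not follow the content (r = 0.088, permutation p = 0.779), and the r of 0.682 for Clic6 (permutation p = 0.018, adjusted p = 0.024) fell to 0.331 (permutation p = 0.381) without wt replicate 2 and Ts66Yah replicate 1, so that it rested on those libraries.

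Averaged over both regions of each animal, the scaled difference was 1.48-fold for Kcne2 (95% interval 1.13 to 1.95, exact permutation p = 0.0152, adjusted p = 0.0227) and 1.39-fold for Clic6 (1.18 to 1.64, exact permutation p = 0.0022, adjusted p = 0.0065). For Kcne2 the adjusted exact permutation p rose to 0.05 without wt replicate 3 or without wt replicate 4. Whether the scaled difference was larger in the HIP than in the EC was tested per animal: the difference between regions was 0.78 for Kcne2 (exact permutation p = 0.208, adjusted p = 0.416) and 0.13 for Clic6 (exact permutation p = 0.602). The interaction of genotype and region called 0 of the 10 genes and 0 of 19074 genes (0.0%, edgeR), with 388 at an unadjusted p under 0.05, and DESeq2 called 0 as well.

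Between regions, the whole set was far lower in the EC. In the 10 wt libraries, 9 of 9 tested genes were called lower in the EC than in the HIP, where 8553 of 17935 genes, or 47.7%, were called in either direction. The animal did not enter this fit. The log2 fold changes ran from -7.05 for Ttr (SE 1.01, edgeR adjusted p = 9.1e-05) to -2.99 for Kcnj13 (SE 0.62, edgeR adjusted p = 0.0015), with -4.23 for Clic6 (SE 0.60). Kcne2 was not tested there because of the low count of wt replicate 4. Without that animal 10 of 10 genes were called, where 8030 of 18047 genes were called in either direction. Every HIP library was above every EC library for 8 of the 10 genes, and Aqp1 and Kcnj13 were the exceptions. How many of all genes were separated in this way was not counted, so this only describes the 10.

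Other genes of the epithelium also followed the content without a called difference between genotypes. Of 30 further choroid plexus genes, 20 rose with the HIP content and none fell, with a median slope of 0.66 against 0.00 over all genes, among them Cldn2, a claudin of leaky epithelia (1.04, SE 0.05), and Tmem72 (1.17, SE 0.06). Of all 18452 genes, 0.656% were called for content. None of the 30 was called between genotypes in the HIP, without content (median log2 fold change -0.19) or with it (median -0.05, against 0.00 over all genes), and 0 of the 24 tested in the EC were called. Over all genes, 0.591% were called in each HIP fit and 0.283% in the EC. In wt, 21 of the 28 tested were lower in the EC and 1, the neuronal bicarbonate exchanger gene Slc4a10, was higher (0.36, edgeR adjusted p = 0.0154). Of all 17935 genes, 4360 were called lower in the EC and 4193 higher. The 3 most abundant of the 30 were Atp1b1, a sodium pump subunit (HIP log2 fold change 0.03, SE 0.06), Enpp2, which makes lysophosphatidic acid (-0.26, SE 0.40), and Slc4a10 (0.01, SE 0.06). Of these, Enpp2 rose with content (0.67, SE 0.05), whereas Atp1b1 and Slc4a10, which neurons also express, had slopes of 0.00 and 0.03.

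Among genes of neighbouring cell types, only 2 meningeal and stromal genes were called for content, where 121 of 18452 genes, or 0.656%, were called. Of 11 ependymal genes, 0 were called for content, between genotypes in the HIP or, of 8 tested, in the EC, and the most abundant, Foxj1, Rarres2 and Fam183b, had HIP log2 fold changes of -0.08, 0.28 and 0.19. Of 14 meningeal and stromal genes, 2 rose with content, Igf2 (0.71, SE 0.12) and Igfbp2 (0.43, SE 0.05), and 0 were called between genotypes in either region, with HIP values of 0.17 for Igfbp2, 0.55 for Dcn and 0.15 for Islr. All 14 had positive slopes on content. Between genotypes, 14 of 14 were positive in the HIP (median 0.17), where 9227 of 18452 genes were positive. In the EC 2 of 14 were positive (median -0.33), where 8570 of 17658 genes were. Of 6 endothelial genes, 0 were called for content or genotype, and Itm2a, Flt1 and Slco1a4 had HIP values of -0.06, 0.01 and 0.03. Summed over the list, the ependymal genes stood at 24.6 to 37.2 CPM in wt HIP and 27.9 to 48.6 CPM in Ts66Yah HIP, and the meningeal genes at 94.7 to 169 and 122 to 243 CPM. No gene of these lists was at 0 in all libraries of a group, and their part in the results was not tested.

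Genes that neighbour Kcne2 and Clic6 on the segment were higher in Ts66Yah. Their median slope on the HIP content was 0.03, against 0.00 over all genes. Of 13 tested, 11 were called higher in Ts66Yah HIP and 7 in Ts66Yah EC, with medians of 0.58 and 0.54 on the log2 scale. Over all genes, 0.591% were called in the HIP and 0.283% in the EC. For content 0 of the 13 were called, a count that says little where 0.656% of all genes were called. The 11 were Son (0.58, SE 0.07), Itsn1 (0.49, SE 0.05), Atp5o (0.71, SE 0.07), Slc5a3 (0.59, SE 0.09), Mrps6 (0.51, SE 0.09), Smim11 (0.60, SE 0.07), Rcan1 (0.63, SE 0.07), Cryzl1 (0.55, SE 0.04), Donson (0.64, SE 0.07), Gart (0.59, SE 0.05) and Setd4 (0.56, SE 0.09). Runx1 (0.15, SE 0.19) and Cbr1 (0.40, SE 0.08, edgeR adjusted p = 0.0560) were not called, and Kcne1 had too few reads to be tested. Slc5a3 and Mrps6 overlap each other and Gm49711 on the same strand, and Son overlaps Donson on the opposite strand, so their counts may share or lose reads. Atp5o is listed under 2 identifiers, of which that with more reads was used. In the fit with content the called neighbours ran from 0.48 (Itsn1) to 0.72 (Atp5o), with Cbr1 at 0.40 and Runx1 at 0.14, not called. In that fit Clic6, at 0.59, lay within the range of the called neighbours and Kcne2, at 0.80, above it. Without wt replicate 4 the Kcne2 value was 0.67.

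Outside the segment, no gene of the channel partners was called. Of 10 tested genes of the KCNE family and known partners of Kcne2, only Slc5a3 was called in the HIP; it encodes a sodium-coupled myo-inositol transporter and lies on the triplicated segment. Kcnq3, a potassium channel gene, had a HIP log2 fold change of 0.07. In the EC, 0 of 11 were called. None of the 4 other genes of the CLIC family was called in either region, and Clic4, Clic5 and Clic1 had HIP values of 0.18, -0.14 and 0.10. Of 14 genes of ion and water transport, again only Slc5a3 was called between genotypes in the HIP, 0 were called in the EC, and Slc4a2 (0.23, SE 0.03) and Slc12a4 (0.15, SE 0.03) rose with content.

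Among 17226 other genes tested in both regions, those whose levels were most like the content, by Pearson's r over 22 libraries after subtracting the mean of each region, were Enpp2 (0.938), Col8a1 (0.927), Gm44250 (0.904), Scara5 (0.894), Sulf1 (0.887), F5 (0.880), Slc4a2 (0.872), Trpv4 (0.872), 1500015O10Rik (0.868) and Mdfic (0.863). Of these, 6 were on the list of choroid plexus genes. All 10 had r of 0.928 or more within the HIP, but in the EC r ran from -0.07 (Mdfic) to 0.75 (Scara5), so that the likeness came from the HIP libraries. None of the 10 lies on the triplicated segment (Col8a1 is on chromosome 16 outside it), and 0 were called between genotypes in the HIP with or without content.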

How the data were processed

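RNA-Seq was performed on the HIP and EC of 11 male mice, with groups and replicate numbers as the labels give them. The study's methods state that single-end reads were aligned with Hisat2 to GRCm38 (annotation release 99) and counted with HTSeq-count; the counting's strand setting is not given in the sources used here, and the labels and the methods differ on poly(A) selection against ribosomal RNA depletion. The authors deposited raw counts per gene, whole numbers of reads, and all 22 columns were mapped to samples (0 unmapped). The tables of the authors' own comparisons hold fold changes and p-values and were not used. Symbols came from GENCODE M21 (GRCm38), which matched 55144 of 55385 identifiers; Ecrg4 is listed there as 1500015O10Rik.

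Within each region, counts were filtered with filterByExpr, scaled by TMM and tested by quasi-likelihood in edgeR 4.0.16 (under R 4.3.3); genes were called at a Benjamini-Hochberg adjusted p under 0.05 across the whole table; the SE is the absolute log2 fold change divided by the square root of F. CPM and log2 CPM (prior count 2) used TMM factors over all 22 libraries. Content was the mean log2 CPM of 8 genes. Scaled values were compared by exact permutation over all 462 splits of 11 animals, intervals invert that test, and correlations used 100000 permutations (numpy 2.4.6). Alternatives were DESeq2 1.42.0, RLE factors, other filters, other references, a prior count of 0.5, all 22 libraries, blocks and leaving out each library. Tested on simulated data for the HIP comparison with 18452 genes, the fit with content called 88% of 50 genes raised 1.5-fold, against 72% for genotype alone. Both fits called 0% of 200 genes that followed content only. The raised genes did not follow content, so genes that do both, like Kcne2 and Clic6, were not simulated. Genes named from each list were the 3 most abundant and any called between genotypes, some of which are not reported here; Cldn2, Tmem72, Igf2, Slc12a4, Runx1, Cbr1 and Kcne1 were named after their values were seen. The members, lists and rules were chosen with earlier results of these data known.

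Same-numbered wt and Ts66Yah libraries do not share an animal, so no block entered the comparison of genotypes. Libraries of 1 animal in both regions are paired, but the edgeR fits of region and of the interaction left this pairing out. The animal as a block was an alternative, in which 9562 of 17935 genes were called between regions in wt.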

Additional observations from a re-analysis of the deposited data

Results flagged for a closer look

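Of 52 groups of libraries checked, 4 held a library whose gap to its neighbour was large for the group's range, and chance alone flags about 1 group in 20. In wt HIP, replicate 4 had the lowest Kcne2 level, at a log2 CPM of -1.64 (7 reads), where the other wt libraries were at 169 to 716 reads. The scaled Kcne2 value of the same library, -2.79, was also far below the other wt libraries, and its scaled Clic6 value, 0.86, was far above them. In Ts66Yah EC, replicate 4 had the lowest Kcne2 level, at a log2 CPM of -3.60, which rests on 1 read.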

How the results depend on the processing

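For Kcne2 and Clic6 the direction held in the HIP under every alternative run, whereas the call did not always hold. Clic6 scaled in the HIP missed the threshold against Ttr alone (0.45), Folr1 alone (0.21), Aqp1 alone (0.50), Kcnj13 alone (0.48), the summed CPM (0.52), the median (0.55) and the set of Ttr, Folr1, Kcnj13 and Slc4a5 (0.47), all chosen as references, of which the single genes other than Ttr were added after the data were seen. Over both regions, Kcne2 missed it against Ttr (0.62), with the median (0.52) and with a prior count of 0.5 (0.60), and Clic6 against Ttr (0.54) and with the median (0.44). Scaled Clic6 in the EC passed it with the summed CPM (0.65). The cause was not tested.

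Same-numbered wt and Ts66Yah libraries correlated at -0.01 to 0.06 in the HIP and 0.02 to 0.19 in the EC, so they share only a number. With the replicate number as a block, scaled values were 0.99 (Kcne2, HIP), 0.58 (Kcne2, both regions), 0.53 (Clic6, HIP) and 0.42 (Clic6, both regions), where 5 pairs allow no exact permutation p under 0.0625. With content and the block, Kcne2 stood at 0.82 (edgeR adjusted p = 0.119) and Clic6 at 0.59 (edgeR adjusted p = 0.0174). In the block, disomic genes that were never called changed sign in the HIP, to 0.39 (Ttr), 0.45 (Folr1), 0.15 (Aqp1), 0.15 (Otx2), 0.23 (Kcnj13) and 0.45 (Prlr), and Folr1 stood at 0.0066 with DESeq2. The block called 61 HIP genes against 109 without it, and 66 against 109 with content. The block by animal changed no count of members between regions.

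Leaving out 1 library in turn, HIP log2 fold changes were for Kcne2 0.21 at the lowest, when wt replicate 4 was dropped, and 0.89 at the highest, when wt replicate 2 was; for Clic6 they were 0.16, when Ts66Yah replicate 1 was dropped, and 0.88, again for wt replicate 2; and the content difference ran from -0.47 to 0.63. Those of the disomic genes ran from -0.51 to 0.19 (Ttr), -0.30 to 0.40 (Folr1), -0.43 to 0.041 (Kl), -0.58 to 0.046 (Aqp1), -0.45 to 0.28 (Otx2), -0.49 to 0.28 (Kcnj13) and -0.29 to 0.56 (Prlr), the upper ends without wt replicate 2. In the EC they ran from -0.00080 to 0.55 (Clic6) and -0.50 to 0.17 (Kcnj13). Scaled values ran from -0.068 to 0.39 (Kcne2, EC, negative without wt replicate 3), 0.49 to 0.66 (Kcne2, both regions) and 0.32 to 0.53 (Clic6, EC, past the threshold without wt replicate 2).

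Over all genes, DESeq2 called 373 in the HIP (edgeR 109) and 109 in the EC (edgeR 50), while 68 HIP genes were called with a block for the 2 ranges of animal numbers and 79 EC genes with all 22 libraries. With content, 189 HIP genes were called without wt replicate 2 and 65 without wt replicate 4, and EC calls ran from 21 (block, or without wt replicate 3) to 79 (all 22 libraries), against 41. At 1 to 6 reads a library, Kcne2 differences of 1.5-fold were not detectable in the EC.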
